A study of Rattus norvegicus with 4 samples.

Results

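The cytosolic ribosomal protein genes were taken from the deposited gene table as every row whose symbol begins with Rpl or Rps and a number, or is Rplp0, Rplp1, Rplp2 or Rpsa, with the S6 kinase genes left out. The rule matched 81 rows, which describe 76 gene identifiers of the 14137 in the table. Of these 76 genes, 63 are core subunits of the ribosome, 35 of the large (60S) and 28 of the small (40S) subunit. A further 6 are named paralogs, and 7 are other symbols, namely symbols with a pseudogene or copy suffix and Rps19bp1. Rps19bp1 codes for a protein that binds ribosomal protein S19 and is not itself a ribosomal protein. The suffix does not tell how strongly a gene is expressed, and these genes are outside the core counts. The rule used symbols only and no measured value. The 63 core genes carry 60 of the 77 core symbols of the class list, and the other 17 are not analysed here.

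The study used neonatal rat ventricular cardiomyocytes (NRVMs), heart muscle cells cultured from newborn rats, infected with a lentivirus. The group labelled KO received an shRNA against Crat, which codes for carnitine acetyltransferase, an enzyme that transfers acetyl groups between coenzyme A and carnitine. The group labelled WT received a control shRNA. Both groups were harvested at day 5, each has 2 libraries, and total RNA was sequenced. The KO label stands for a knockdown by hairpin, so cells of that group still carry the gene, and every cell of both groups was exposed to a lentivirus. Whether each library stands for its own culture is not in the labels, so the p-values measure only the spread between these libraries, and that spread may be technical.

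Crat was at 24.9 and 19.7 RPM (reads scaled to a fixed library total) in KO libraries, against 148 and 156 RPM in WT libraries. The KO libraries held 321516 and 1622998 reads and the WT libraries 23680064 and 1321735 reads, so depth differed up to 73.7-fold. All 10 cardiomyocyte markers tested were read in both groups, with a summed level of 12637 and 13021 RPM in KO libraries and 31694 and 32182 RPM in WT libraries. The summed level of 10 fibroblast markers was 24064 and 24664 RPM in KO libraries and 31488 and 32955 RPM in WT libraries, so the cultures also held other cells of the heart. In such bulk RNA, fewer cells of a type and less RNA per cell cannot be told apart.

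Ribosomes read mRNA and join amino acids into protein. The small subunit holds the mRNA and the large subunit forms the peptide bonds, and each is a frame of ribosomal RNA clad in ribosomal proteins. The proteins are needed in equal number, with the stalk proteins as the exception, and cells make them together. Most of their mRNAs begin with a C followed by a run of pyrimidines (C or T in the gene), the 5′ terminal oligopyrimidine or TOP motif, through which mTORC1 and the RNA-binding protein Larp1 govern their translation. Heart muscle cells raise ribosome production when they grow.

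The starts of these genes show the shared feature that the symbol rule did not use. RefSeq promoters of assembly GRCr8, each with 250 bases before and 50 bases from the annotated start, were found by symbol for 53 of the 73 symbols searched, 48 of them core. A run of a C followed by at least 4 more pyrimidines, starting within 20 bases of the annotated start on the gene's strand, was present in 42 of 48 core genes (87.5%), against 15986 of all 33469 promoters of the table (47.8%). With the start of the run within 2 bases of the annotated start, the shares were 62.5% of core genes and 8.57% of all promoters. The sequences below run from 30 bases before to 15 bases from the start on, with that run in capitals. Where several C could open a run, the C nearest the annotated start was taken, so pyrimidines before the capitals can belong to the same tract. They are shown for genes that were lower, higher or not called in KO libraries, so that the starts can be read beside the values that follow.
Rpl10: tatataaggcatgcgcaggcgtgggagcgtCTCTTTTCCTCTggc
Rps27a: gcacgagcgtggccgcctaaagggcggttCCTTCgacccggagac
Rps3a: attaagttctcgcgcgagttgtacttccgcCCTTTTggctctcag
Rpl12: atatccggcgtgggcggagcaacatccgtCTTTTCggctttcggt
Rps28: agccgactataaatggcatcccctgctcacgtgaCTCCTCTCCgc
Rpl23: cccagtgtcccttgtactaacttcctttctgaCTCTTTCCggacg
Rpl3: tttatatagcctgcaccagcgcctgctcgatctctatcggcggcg
Rplp0: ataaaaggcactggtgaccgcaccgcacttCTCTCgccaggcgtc
Rps12: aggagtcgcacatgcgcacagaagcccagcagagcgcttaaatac
Rpl7l1: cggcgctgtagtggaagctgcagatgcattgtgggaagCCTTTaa
Rpl22l1: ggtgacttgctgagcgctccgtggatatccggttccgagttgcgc

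These windows lie, on GRCr8, at chrX:157205820-157205864 (+) for Rpl10, chr14:107488927-107488971 (-) for Rps27a, chr2:173827028-173827072 (-) for Rps3a, chr3:36661910-36661954 (+) for Rpl12 and chr7:15311319-15311363 (-) for Rps28. The others lie at chr10:83272170-83272214 (-) for Rpl23, chr7:113507976-113508020 (-) for Rpl3, chr12:46718376-46718420 (-) for Rplp0, chr1:23500045-23500089 (+) for Rps12, chr9:21695688-21695732 (+) for Rpl7l1 and chr2:113683166-113683210 (+) for Rpl22l1. In Rpl10, Rps3a and Rplp0 the capitals begin at the annotated start itself, and the tract reaches further upstream in each. Rpl3, Rps12 and Rpl22l1 have no such run within the window searched, and in Rpl7l1 it is a stretch of 5 bases that starts at position 9 after the start.

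**Figure D1:**
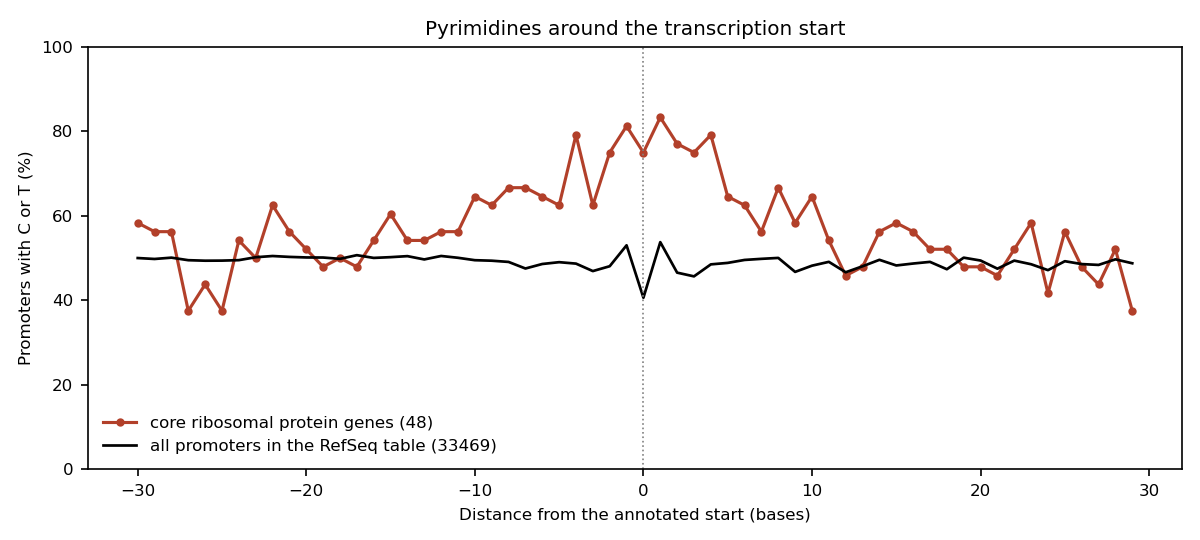
Share of promoters with C or T (%) at each distance (bases) from the annotated start, on the gene's strand, for 48 core ribosomal protein genes and for all 33469 promoters of the RefSeq table. At the base just before the start the share is 81.3% in core genes and 53.0% in all promoters.

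A set of 4 motifs was searched on both strands of the 300-base windows. CCGGAAG, the letters bound by ETS family factors, was found in 14 of 48 core genes (29.2%) and in 8.75% of all promoters. CACGTG, an E-box, was found in 8.33% of core genes and 6.42% of all promoters, and TATAAA in 12.5% and 14.2%. GAAANNGAAA, letters found in interferon response elements, was found in 6.25% of core genes and 3.92% of all promoters. No overlap between these motifs was searched for, and a match is only a match of letters.

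Across the core genes the KO libraries gave slightly lower values than the WT libraries. In limma on log2(RPM + 1), with Benjamini-Hochberg adjustment over all 12949 genes tested and a threshold of 0.05, 13 of 63 core genes were lower in KO libraries (20.6%) and 1 was higher (1.59%). Of all genes tested, 6.36% were lower and 12.6% were higher. Core genes are abundant, and among the 2151 tested genes that averaged 100 RPM or more, 20.9% were lower and 28.9% were higher. Of the 56 core genes of that abundance, 13 were lower (23.2%), a share near this background, and 1 was higher (1.79%), a share below it. The median log2 fold change, KO over WT, was -0.17 over the 63 core genes, -0.16 over the 60S genes and -0.18 over the 40S genes, beside 0.15 over all genes tested. Without either WT library, 0 of the core genes were lower in limma, with 12 of them at an unadjusted p under 0.05 in each case. Without the first or the second KO library the median log2 fold change of the core genes was -0.19 and -0.13. A fit with 1 library left out takes the spread between libraries from the other group alone, so its calls are weak evidence either way.

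The count of lower genes depended on how the libraries were scaled. RPM divides by the library total. Median-of-ratios scaling, which centres on the typical gene, moved the median of all genes tested to -0.03, and the median of the core genes to -0.36. With it, 33 of 63 core genes were lower (52.4%) and 0 were higher in limma, where 9.68% of all genes tested were lower and 8.06% higher. Of the 56 abundant core genes 58.9% were lower, beside 30.9% lower and 18.5% higher of all genes of that abundance. In edgeR's quasi-likelihood test on the recovered reads, 24 core genes were lower (38.1%) and 2 were higher, where 10.1% of all genes tested were lower and 22.6% higher. Of the 56 abundant core genes 39.3% were lower in edgeR, beside 26.7% lower and 38.3% higher of all genes of that abundance. All 13 genes lower in limma were also lower with median-of-ratios scaling, in edgeR, in DESeq2 and in the authors' deposited table. The median-of-ratios factors over the library total were 1.07 in each KO library and 0.93 and 0.94 in WT libraries. That scaling thus moves a gene already lower in RPM further down. All these tests read the same libraries, so their shared calls are not independent support. In limma without the variance trend, and with reads thinned to the shallowest library, 0 core genes were lower.

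In RPM the core genes moved little and within a narrow range. The median of the 56 core genes that averaged 100 RPM or more was -0.15 in RPM and -0.34 with median-of-ratios scaling. In RPM the log2 fold changes had an SD of 0.194 over these 56 genes, and 98.2% lay within 0.5 of 0 on the log2 scale. Over all 2151 genes of that abundance the SD was 1.10 and 61.6% lay within that limit. The first KO library had a median log2 ratio over these 56 genes of -0.13 to the first WT library and -0.12 to the second. The second KO library had -0.17 and -0.20 to the same libraries. Each KO library thus lay below each WT library in this median, while the 2 KO libraries differed from each other by a median of -0.06 and the 2 WT libraries by -0.02. The 2 KO and 2 WT values did not overlap, with KO below WT, in 38 of 63 core genes, and lay the other way in 6, where 21.7% of all genes tested were lower and 39.1% higher in this sense. Such gaps were more frequent among abundant genes. Of the 2151 tested genes averaging 100 RPM or more, 732 were lower and 1010 higher in this sense, beside 35 and 5 of the 56 core genes of that abundance.

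**Figure D2:**
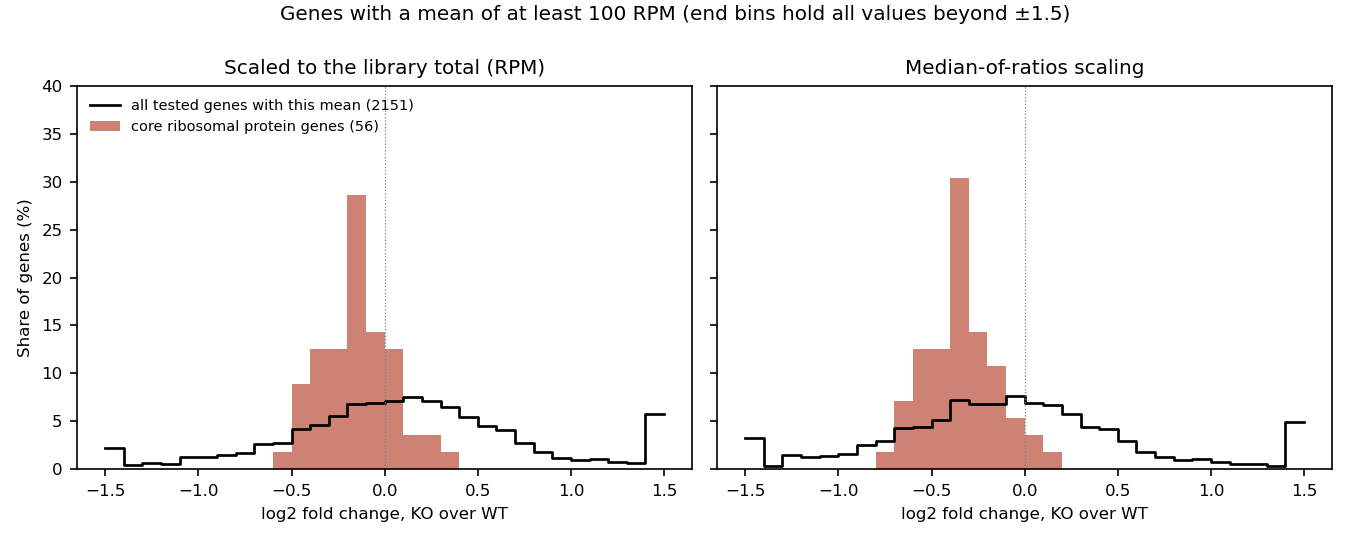
Share of genes (%) by log2 fold change, KO over WT, for 56 core ribosomal protein genes (bars) and all 2151 tested genes (line) averaging 100 RPM or more, with RPM values on the left and median-of-ratios scaling on the right. The core genes form a narrow peak below 0 in both panels, with 98.2% within 0.5 of 0 in RPM.

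Other parts of the RNA differed far more between the same libraries. The 13 mitochondrially encoded genes took 3.64% and 3.62% of the reads in KO libraries and 9.47% and 9.08% in WT libraries. The 17 interferon response genes tested took 1.08% and 1.12% in KO libraries and 0.0389% and 0.0283% in WT libraries, and 16 of the 17 were higher in KO libraries in limma. Of the 10 cardiomyocyte markers 9 were lower, of the 10 fibroblast markers 6 were lower and 2 higher, and of the 7 smooth muscle and pericyte markers 5 were lower and 1 higher, with summed levels of 1863 and 1786 RPM in KO libraries and 5164 and 5271 RPM in WT libraries. The 5 endothelial markers summed to 65.3 and 58.5 RPM in KO libraries and 50.7 and 62.0 RPM in WT libraries, and the 8 leukocyte markers to 68.4 and 55.5 RPM in KO libraries and 51.9 and 50.7 RPM in WT libraries. Every gene in the deposited table had at least 10 reads over the 4 libraries, so no marker in it could be at 0 in all. Markers absent from that table cannot be judged here. The part of these shifts, and of depth, in the ribosomal protein values was not tested.

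Taken as a share of all reads, the 76 genes made up 2.72% of the first KO library (95% Wilson interval 2.66 to 2.78) and 2.64% of the second (2.61 to 2.66). In WT libraries the shares were 2.91% (2.91 to 2.92) and 2.90% (2.87 to 2.93). Both KO shares lay below both WT shares, by 0.229 percentage points on average, and the exact two-sided permutation test gave p = 0.333, the smallest that 2 against 2 libraries allow. The 40S core genes held 1.11% and 1.10% of KO reads and 1.26% and 1.24% of WT reads. The 60S core genes held 1.45% and 1.38% of KO reads and 1.51% of the reads of each WT library. With the mitochondrially encoded genes taken out of the total, the shares of all 76 genes were 2.82% and 2.74% in KO libraries and 3.22% and 3.19% in WT libraries. The intervals cover counting error only.

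Of the 28 small-subunit genes, 7 were lower in KO libraries in limma (25%) and 0 were higher, beside 20.9% lower and 28.9% higher of all tested genes averaging 100 RPM or more. Rps27a, which codes for a ribosomal protein made as a fusion to ubiquitin, had 485 and 502 RPM in KO libraries, against 678 and 648 RPM in WT libraries. It fell by 25.5%, with a log2 fold change of -0.42 ± 0.07 (SE, n = 2 each) and an adjusted p of 0.00232 in limma. Rps3a, a protein near the site where mRNA leaves the small subunit, had 690 and 761 RPM in KO libraries, against 949 and 888 RPM in WT libraries, a log2 fold change of -0.34 ± 0.07 with an adjusted p of 0.00849. In both genes every KO value lay below every WT value.

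Rps28 and Rps29 had the largest falls among the 40S genes that passed. Rps29, a zinc-binding protein of the small subunit's head, had 243 and 278 RPM in KO libraries and 369 and 349 RPM in WT libraries, with a log2 fold change of -0.47 ± 0.10 and an adjusted p of 0.00929. Rps28, a protein beside the mRNA exit path, had 106 and 141 RPM in KO libraries, against 173 and 180 RPM in WT libraries, with a log2 fold change of -0.53 ± 0.15 and an adjusted p of 0.0359. The lowest of these values, that of Rps28 in the first KO library, rests on 34 reads. Rps4x, whose human counterpart is X-linked, had 703 and 656 RPM in KO libraries and 806 and 780 RPM in WT libraries (log2 fold change -0.22 ± 0.07, adjusted p 0.0425). The KO and WT values did not overlap.

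The other 40S genes described by role did not pass in limma. Rps6, the protein that S6 kinases phosphorylate, had 715 and 750 RPM in KO libraries and 796 and 773 RPM in WT libraries (log2 fold change -0.10 ± 0.06, adjusted p 0.327). Rpsa, also known as the laminin receptor precursor, had 992 and 966 RPM in KO libraries and 1080 and 1090 RPM in WT libraries (log2 fold change -0.15 ± 0.05, adjusted p 0.0941). Rps2 had 967 and 925 RPM in KO libraries and 1029 and 1059 RPM in WT libraries (log2 fold change -0.14 ± 0.06, adjusted p 0.123). All 3 had KO values below WT values in every library, and with median-of-ratios scaling all 3 passed as lower, with adjusted p of 0.0112, 0.00198 and 0.00282.

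**Figure D3:**
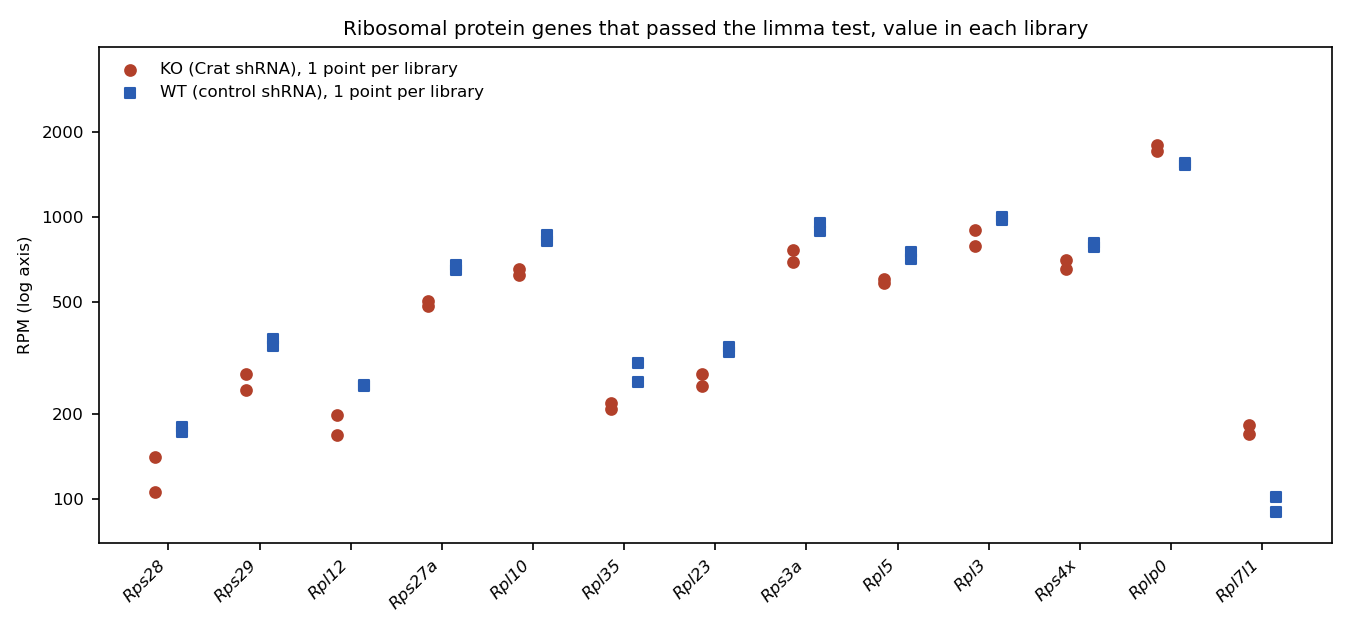
RPM (log axis) in each of 2 KO and 2 WT libraries for 11 of the 13 core genes lower in KO libraries, for Rplp0 and for the paralog Rpl7l1, in the order of their log2 fold change. Each point is 1 library, and the KO and WT points of a gene do not overlap, as in Rps27a with 485 and 502 RPM in KO libraries and 678 and 648 RPM in WT libraries.

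Of the 35 large-subunit genes, 6 were lower in KO libraries in limma (17.1%) and 1 was higher (2.86%), beside the same 20.9% and 28.9% of abundant genes. Rpl10, which joins the large subunit late, in the cytoplasm, and lies near the peptidyl transferase centre, had 622 and 656 RPM in KO libraries, against 864 and 825 RPM in WT libraries. It fell by 24.3%, with a log2 fold change of -0.40 ± 0.07 (SE, n = 2 each) and an adjusted p of 0.00224, the lowest among the core genes. Rpl3, another protein whose loop reaches toward that centre, had 896 and 787 RPM in KO libraries and 1002 and 972 RPM in WT libraries (log2 fold change -0.23 ± 0.07, adjusted p 0.0497). Rpl10 showed a clear gap between the groups, whereas Rpl3 passed just under the threshold.

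Rpl12, at the base of the stalk, had 199 and 169 RPM in KO libraries and 254 and 252 RPM in WT libraries, with a log2 fold change of -0.46 ± 0.11 and an adjusted p of 0.0177. Rpl35, beside the tunnel through which the new protein leaves, had 208 and 219 RPM in KO libraries and 259 and 304 RPM in WT libraries (log2 fold change -0.39 ± 0.11, adjusted p 0.0317). In both genes every KO value was lower than every WT value.

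Rpl5, Rpl11 and Rpl23 can bind the ubiquitin ligase Mdm2 when ribosome assembly fails, Rpl5 and Rpl11 together with the 5S RNA. Rpl5 had 582 and 601 RPM in KO libraries, against 752 and 711 RPM in WT libraries (log2 fold change -0.31 ± 0.07, adjusted p 0.0113). Rpl23 had 252 and 277 RPM in KO libraries, against 346 and 332 RPM in WT libraries (log2 fold change -0.36 ± 0.09, adjusted p 0.0239). Rpl11 had 339 and 311 RPM in KO libraries and 395 and 376 RPM in WT libraries, and missed the threshold (log2 fold change -0.25 ± 0.09, adjusted p 0.0801). The KO values of all 3 lay below the WT values.

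Rplp0, the protein that anchors the stalk to which elongation factors bind, was the only core gene higher in KO libraries in limma. It had 1795 and 1710 RPM in KO libraries, against 1524 and 1559 RPM in WT libraries, with a log2 fold change of 0.18 ± 0.05 and an adjusted p of 0.0272. The direction depended on the scaling, for the log2 fold change was -0.02 with TMM scaling and -0.01 with median-of-ratios scaling. Without the first KO library or either WT library it did not pass. Its stalk partner Rplp1 had 834 and 704 RPM in KO libraries and 781 and 785 RPM in WT libraries, which overlap (log2 fold change -0.03 ± 0.08, adjusted p 0.827). Rpl19 had 1020 and 927 RPM in KO libraries and 902 and 1015 RPM in WT libraries, and Rpl4 had 936 and 844 RPM in KO libraries and 942 and 904 RPM in WT libraries. Both overlapped between the groups and did not pass (log2 fold change 0.02 ± 0.07 with adjusted p 0.863, and -0.05 ± 0.07 with adjusted p 0.624).

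**Figure D4:**
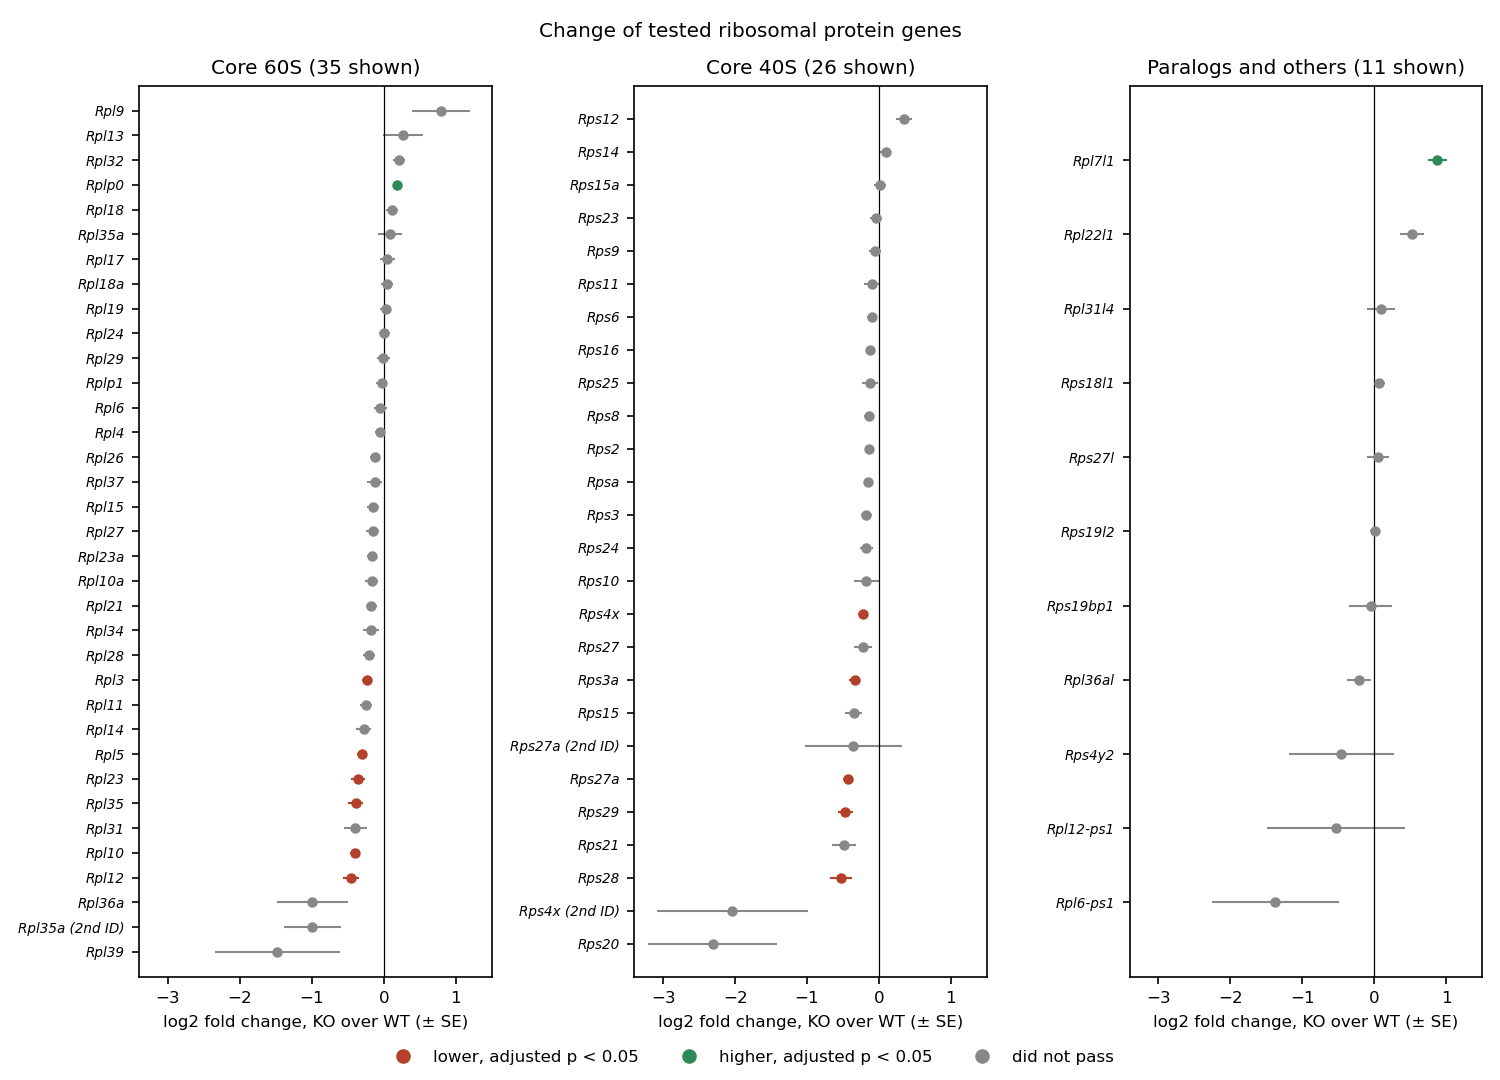
Log2 fold change, KO over WT, with its SE from limma for 72 of the 74 tested genes, by class and in order of size. Most core genes lie a little left of 0, 11 of those drawn pass as lower and Rplp0 and Rpl7l1 pass as higher, and the few genes with long bars have a mean below 100 RPM.

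Of the 56 core genes that averaged 100 RPM or more, 42 did not pass in limma, with log2 fold changes between -0.49 and 0.34. KO values lay below WT values in 22 of these 42, above them in 4, and overlapped in 16. Of all 2151 tested genes of that abundance, called or not, KO values lay below WT values in 732 and above them in 1010. The ends of this range, Rps21 and Rps12, were singled out after their values were seen. Rps21 had 118 and 167 RPM in KO libraries and 210 and 186 RPM in WT libraries (log2 fold change -0.49 ± 0.16, adjusted p 0.0662). Rps12 had 317 and 271 RPM in KO libraries and 243 and 219 RPM in WT libraries (log2 fold change 0.34 ± 0.11, adjusted p 0.0577). Neither pair of groups overlapped, and both missed the threshold. In edgeR both passed, Rps21 as lower with an adjusted p of 0.00244 and Rps12 as higher with an adjusted p of 0.0242. With median-of-ratios scaling in limma, Rps21 passed as lower (adjusted p 0.017). Rps12 did not pass there (log2 fold change 0.15, adjusted p 0.403), nor in DESeq2 (0.11, adjusted p 0.825).

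The core genes were also set against each other. When each library was scaled to its core ribosomal protein genes, 2 core genes were lower (3.17%) and 3 higher (4.76%) in limma, where 4.44% of all genes tested were lower and 18.3% higher, so neither share exceeded that of all genes. Rps27a (log2 fold change -0.28, adjusted p 0.0312) and Rpl10 (-0.25, adjusted p 0.0383) were the lower genes on this scale. Rplp0 (0.33, adjusted p 0.00159), Rpl32 (0.36, adjusted p 0.0123) and Rps12 (0.49, adjusted p 0.0102) were the higher ones. Rpl32, which was singled out after its values were seen, had 541 and 486 RPM in KO libraries and 456 and 432 RPM in WT libraries, and in RPM its log2 fold change of 0.21 ± 0.08 did not pass (adjusted p 0.114). The starts shown above differ among these 5 genes. Rpl10, Rps27a and Rplp0 have a run at or beside the annotated start, and Rps12 has none, while Rpl32 had no entry by symbol.

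A pyrimidine run was found in 9 of the 10 matched core genes lower in KO libraries in limma and in 33 of the 38 that were not (86.8%). The median log2 fold change was -0.17 over the 42 core genes with a run and -0.08 over the 6 without. With 6 genes in 1 of these groups, these medians are a description only. For each of these genes 1 promoter was searched, near its annotated start. A gene without a run there, such as Rps12 or Rpl3, may have one at another start.

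The paralogs are copies that replace or resemble a core protein, and their summed level was 476 and 502 RPM in KO libraries and 373 and 389 RPM in WT libraries. Rpl7l1, a relative of Rpl7 that in human cells acts in the assembly of the large subunit, had 184 and 170 RPM in KO libraries, against 90.2 and 101 RPM in WT libraries. It rose by 84.5%, with a log2 fold change of 0.88 ± 0.13 and an adjusted p of 0.00116 in limma, and stayed higher with median-of-ratios scaling (0.69, adjusted p 0.0046). Without the first WT library it did not pass (0.80, adjusted p 0.0752). Rpl22l1, the close relative of Rpl22, had 96.4 and 125 RPM in KO libraries and 75.3 and 76.4 RPM in WT libraries, which do not overlap. Its log2 fold change of 0.53 ± 0.16 just missed the threshold in limma (adjusted p 0.0523), was 0.34 with median-of-ratios scaling (adjusted p 0.207), and passed in edgeR (0.66, adjusted p 1.08e-05). Rpl7 and Rpl22 themselves are not analysed here.

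The other paralogs showed no call. Rps27l, a relative of Rps27, had 103 and 134 RPM in KO libraries and 115 and 111 RPM in WT libraries, and Rpl36al had 90.2 and 70.9 RPM in KO libraries and 88.3 and 97.6 RPM in WT libraries. Both overlapped between groups (log2 fold change 0.06 ± 0.16 and -0.21 ± 0.17). Rps4y2 had 3.11 and 1.23 RPM in KO libraries and 4.27 and 2.27 RPM in WT libraries, a level of 1 and 2 reads in the KO libraries. Rpl39l had 0 reads in 3 libraries and a mean under the filter of 1 RPM, as did Rps28-ps1, and neither was tested.

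Among the remaining symbols, Rps19l2 had 495 and 543 RPM in KO libraries and 515 and 512 RPM in WT libraries, and Rps18l1 had 451 and 442 RPM in KO libraries and 425 and 424 RPM in WT libraries. Neither passed (log2 fold change 0.01 ± 0.08 and 0.07 ± 0.07). They averaged 516 and 436 RPM, and their symbols alone place them outside the core counts. Rps19 and Rps18 themselves are not analysed here. Rpl31l4 had 112 and 83.8 RPM in KO libraries and 104 and 77.9 RPM in WT libraries, and Rps19bp1 had 24.9 and 17.9 RPM in KO libraries and 20.4 and 23.5 RPM in WT libraries. Both overlapped. Rpl6-ps1 had 0 and 4.93 RPM in KO libraries and 4.65 and 6.05 RPM in WT libraries, and Rpl12-ps1 had 0 and 1.85 RPM in KO libraries and 1.35 and 1.51 RPM in WT libraries, too few reads for a comparison.

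The 7 core genes with a mean below 100 RPM hold the widest values, and none passed in limma. Rps20 had 0 and 6.78 RPM in KO libraries and 19.6 and 8.32 RPM in WT libraries, with a log2 fold change of -2.31 ± 0.90 and an adjusted p of 0.109. Without the first KO library the change was -0.83 and without the second -3.79, each from a single KO library. A count of 0 in the first KO library allows up to 9.33 RPM (3 reads), so a 0 there does not exclude the level of the second WT library. Rpl9 had 34.2 and 14.8 RPM in KO libraries and 13.1 and 12.1 RPM in WT libraries, with a log2 fold change of 0.79 ± 0.41 and an adjusted p of 0.220, and was singled out after its values were seen, as was Rps20. The change of Rpl9 was 0.22 without the first KO library and 1.37 without the second. In edgeR, Rps20 and the second identifier of Rps4x passed as lower. Ribosomal protein genes have many near-identical copies in mammalian genomes. Reads may have been split between copies, so the levels of genes with a second identifier (Rps4x, Rps27a and Rpl35a) or a joint symbol (Rpl36a, Rpl36al, Rps9) are uncertain.

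The lists of related genes were chosen with earlier results of these data known. Of 16 tested TOP mRNAs that code for no ribosomal protein, 8 were lower in KO libraries in limma and 0 higher, with a median log2 fold change of -0.21, and 11 were lower with median-of-ratios scaling. These are 50% and 68.8% of the list, beside 6.36% and 9.68% of all genes tested. Among all tested genes averaging 100 RPM or more, 20.9% and 30.9% were lower. Eef1b2, an elongation factor subunit, had 152 and 169 RPM in KO libraries and 297 and 300 RPM in WT libraries (log2 fold change -0.89 ± 0.10, adjusted p 0.00027). Npm1, a nucleolar chaperone that shares its identifier with a second symbol, had 243 and 274 RPM in KO libraries and 448 and 425 RPM in WT libraries (-0.76 ± 0.09). Vim, an intermediate filament gene that fibroblasts also express strongly, had 485 and 548 RPM in KO libraries and 1384 and 1400 RPM in WT libraries (-1.43 ± 0.07). These falls were larger than that of any core gene that passed. Naca, a ribosome-bound chaperone subunit, was also lower (-0.66 ± 0.13).

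Several genes that control this class of mRNA were higher. Of 16 tested genes of mTORC1 and TOP control, 6 were higher in KO libraries in limma and 0 lower. That is 37.5% higher, beside 12.6% of all genes tested, with a median of 0.29. With median-of-ratios scaling 3 were higher (18.8%), beside 8.06% of all genes tested. Among all tested genes averaging 100 RPM or more, 28.9% were higher in limma and 18.5% with median-of-ratios scaling. Larp1, the TOP-binding protein, had 208 RPM in each KO library and 116 and 117 RPM in WT libraries (log2 fold change 0.83 ± 0.11). Sesn2, an inhibitor of mTORC1 that senses leucine, had 159 and 128 RPM in KO libraries and 57.1 and 65.8 RPM in WT libraries (1.20 ± 0.16). Rraga, a GTPase that brings mTORC1 to the lysosome, and Deptor, an mTOR-binding inhibitor, were also higher (0.84 ± 0.20 and 0.80 ± 0.23), Deptor not with median-of-ratios scaling (adjusted p 0.101). The 9 S6 kinase genes tested had a median of 0.21 and gave 0 calls in limma. In edgeR 2 were higher (22.2%), beside 22.6% of all genes tested.

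Ribosome production as a whole showed few calls. Of 70 tested ribosome biogenesis genes, 3 were lower (4.29%) and 2 higher (2.86%) in limma, beside 6.36% and 12.6% of all genes tested, with a median of 0.11. With median-of-ratios scaling 4 were lower (5.71%) and 1 higher (1.43%), beside 9.68% and 8.06% of all genes tested, and the median was -0.08. Nmd3, the export adapter of the large subunit, had 21.8 and 25.9 RPM in KO libraries and 42.9 and 41.6 RPM in WT libraries (log2 fold change -0.81 ± 0.23), and Rcl1, an assembly factor of the small subunit, had 34.2 and 30.2 RPM in KO libraries and 12.4 and 14.4 RPM in WT libraries (1.21 ± 0.28). Nop16 had 0 and 11.1 RPM in KO libraries and 31.4 and 28.0 RPM in WT libraries, and was also lower, while Rrp1 was higher (0.84 ± 0.26, adjusted p 0.0498) but did not pass with median-of-ratios scaling (adjusted p 0.123). Of 16 tested genes of RNA polymerase I transcription, 1 was higher (6.25%) and 0 lower, beside 12.6% and 6.36% of all genes tested. The higher gene was Polr1a, the largest subunit of that enzyme (1.01 ± 0.22), and the list's median was -0.07. Of 10 tested ribosome quality control genes, 3 were higher (30%) and 0 lower, beside 12.6% and 6.36% of all genes tested. The higher genes were Ascc3, a helicase that splits collided ribosomes (1.25 ± 0.13), Gtpbp2 and Xrn1, and the list's median was 0.20. With median-of-ratios scaling 1 was higher (10%), beside 8.06% of all genes tested. Of all tested genes averaging 100 RPM or more, 28.9% were higher in limma and 18.5% with median-of-ratios scaling, so neither share of this list stands out from abundant genes. The 2 tested genes of the list of ribosomal fusion and ribosome-bound proteins, Fau and Rack1, gave 0 calls. Both were lower with median-of-ratios scaling.

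The 69 mitochondrial ribosomal protein genes, which build the separate ribosome of the mitochondrion, had a median log2 fold change of -0.15, beside -0.17 in the cytosolic core genes. Of them 1 was lower (1.45%) and 0 higher in limma, beside 6.36% and 12.6% of all genes tested. With median-of-ratios scaling 4 were lower (5.8%), beside 9.68% of all genes tested. Their summed level was 2059 and 2044 RPM in KO libraries and 2189 and 2147 RPM in WT libraries. The difference between these families was not tested.

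Depth limits the firmness of these values. Over the 56 abundant core genes the first KO library held between 26 and 577 reads per gene with a median of 124.5, and the first WT library between 2393 and 36083. The log2 ratio between the KO libraries had an SD of 0.243 over these genes, where counting alone gives 0.157. Between the WT libraries the SD was 0.109, where counting alone gives 0.0686.

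**Figure D5:**
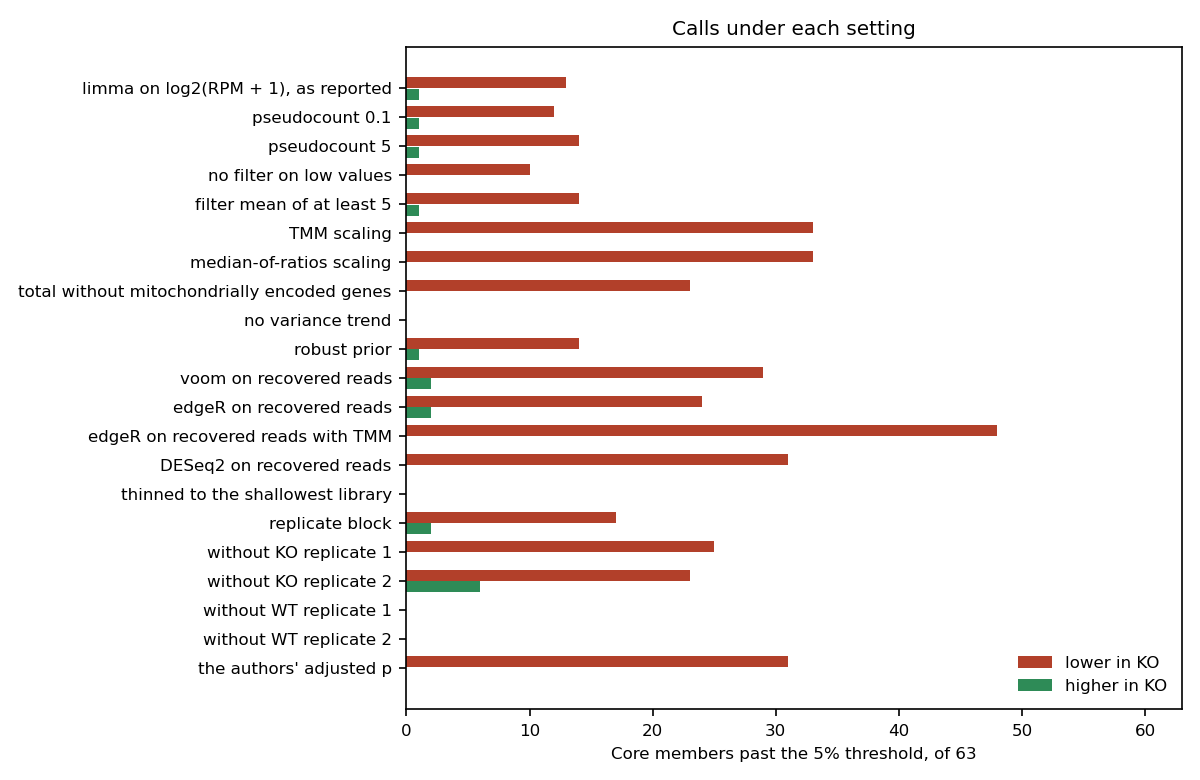
Number of the 63 core genes past the 5% threshold, lower or higher in KO libraries, under each way of scaling, testing or leaving out a library. The lower count is 13 as reported, 33 with median-of-ratios scaling and 0 without either WT library.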

How the data were processed

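RNA of rat cardiomyocytes was measured in 2 KO and 2 WT libraries. The authors deposited 1 table of 14318 rows, with a value per library, group means, p-values and adjusted p-values. The submitters' processing notes name kallisto, DESeq2 and the build mRatBN7.2, and no versions. Per the file headers the deposited library values are TPM, yet each is a whole multiple of a constant step, so this signal is RPM without division by gene length, and levels are not compared between genes. In each library 100% of values came out as whole reads within 0.02 read. An identifier on several rows was used once. The deposited p-value is adjusted over all rows. The test had been planned for TPM and was kept for RPM: log2(RPM + 1) of every gene averaging 1 RPM or more, limma 3.58.1 with a variance trend in R 4.3.3, Benjamini-Hochberg adjustment, threshold 0.05. Alternatives used edgeR 4.0.16 and DESeq2 1.42.0 on recovered reads, other scalings, filters and pseudocounts, and left out each library; edgeR with TMM was chosen after seeing the data. Scripts were tested on simulated data. Adding 1 RPM before the log shrinks fold changes of low genes, yet these were not always smaller than in edgeR. For Rps20 the log2 fold change was -2.31 in limma and -1.67 in edgeR, and for Rps4y2 it was -0.45 and -1.33.

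The members and lists were chosen with earlier results of these data known. A few items are not reported here by name, though totals count them. Named with values were core genes past the threshold, the 4 most abundant of each subunit, those of stated roles, paralogs and other symbols averaging 1 RPM or more, and up to 4 called genes per related list. The RefSeq gene table (GRCr8) matched no deposited identifier, so names come from the deposited table.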

Additional observations from a re-analysis of the deposited data

How the results depend on the processing

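Of 63 core genes, 13 were lower in KO libraries as reported. The count was 33 with TMM scaling, 33 with median-of-ratios scaling, 23 with a total without mitochondrially encoded genes, 29 with voom, 24 in edgeR, 48 in edgeR with TMM (chosen after seeing the data), 31 in DESeq2 and 31 by the authors' adjusted p. It was 0 without the variance trend (with 0 at an unadjusted p under 0.05) and 0 with reads thinned to the shallowest library (with 12), and 0 to 25 with 1 library left out. A fit with 1 library left out takes the spread between libraries from the other group alone. The cause of these differences in count was not tested. The higher count, 1 as reported, was 0 without a filter, with TMM, with median-of-ratios, without mitochondrially encoded genes in the total, without the trend, thinned, in edgeR with TMM, in DESeq2 and in the authors' table, 2 with voom and in edgeR, and 0 to 6 with 1 library left out. The median of -0.17 became -0.37 with TMM, -0.36 with median-of-ratios, -0.25 without mitochondrially encoded genes, -0.38 in edgeR with TMM and -0.35 in DESeq2. Rplp0 turned to -0.0212 with TMM, -0.00784 with median-of-ratios, -0.0258 in edgeR with TMM and -0.0144 in DESeq2. In edgeR with TMM, Rpl19 turned to -0.19 and Rpl31l4 to -0.35. Of 737 values of 37 named genes under alternatives, 586 kept their direction or stayed uncalled, 78 lost a call, 67 gained one and 6 reversed.

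With the replicate number as a block, 17 core genes were lower and 2 higher. Deviations of same-numbered libraries correlated by 0.006 over all genes tested. Counting noise is large in the shallow first KO library, so this value cannot tell whether the numbers pair the libraries.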
